A study of Mus musculus with 6 samples.

Results

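The genes of AMP-activated protein kinase (AMPK) and of the malonyl-CoA switch were described in mouse heart by mRNA-seq. The 10 genes were taken by name from a table of 23808 genes: the AMPK subunit genes Prkaa1, Prkaa2, Prkab1, Prkab2, Prkag1 and Prkag2, the upstream kinase gene Stk11, the acetyl-CoA carboxylase genes Acaca and Acacb, and Mlycd, the malonyl-CoA decarboxylase gene. All 10 were found, each under 1 Ensembl identifier, and all had a mean of at least 1 FPKM, as did 11456 genes of the table. The hearts were of wild-type female mice, and the mice had eaten either a high-fat diet (HFD) or a normal chow diet (NC) from week 4 to week 12 of life. Libraries 1 to 3 were made for each diet. The series is titled for polycystic ovary syndrome mice, but the labels of these 6 libraries name no other treatment than the diet. Whether each library stands for its own animal is not said, and the spread that the p-values are based on may therefore be technical.

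AMPK is an energy sensor made of a catalytic alpha subunit, a scaffolding beta subunit and a nucleotide-binding gamma subunit, each encoded by more than 1 gene. It is switched on when AMP and ADP rise and when LKB1, the product of Stk11, phosphorylates the alpha subunit. Active AMPK phosphorylates and inhibits acetyl-CoA carboxylase, which makes malonyl-CoA, and malonyl-CoA in turn blocks carnitine palmitoyltransferase 1 (CPT1), the gate for long-chain fatty acids into mitochondria. Malonyl-CoA decarboxylase removes malonyl-CoA again, so in heart the kinase, the carboxylase and the decarboxylase together set how freely fat is burned. The measurements here are of mRNA and say nothing of phosphorylation or enzyme activity.

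Values are FPKM, fragments scaled by gene length and by sequencing depth, as the authors deposited them, so levels of different genes are compared per length. The depth of the libraries is unknown. Summed FPKM was between 576334 and 708120 in the HFD libraries and between 694956 and 739406 in the NC libraries. The lowest sum was that of HFD 1, in which 5 genes that were above 1000 FPKM in each of the other libraries, 4 of them mitochondrially encoded, were listed at 0. The 10 ventricular cardiomyocyte markers, among them Myh6 and Tnnt2, were present in every library, with a summed FPKM of 30759.7 to 34480.0 on HFD and 34457 to 44685 on NC. Summed FPKM of 6 macrophage markers was 66.7 to 98.2 on HFD and 101 to 135 on NC. That of 6 pericyte and smooth muscle markers was 178 to 231.7 on HFD and 232.4 to 303 on NC. Of these markers, Cd68, C1qa, Myh11 and Tagln were each separated by diet. Adgre1, Csf1r, C1qb, Cd163, Pdgfrb, Rgs5, Kcnj8 and Acta2 overlapped, so the sums do not show that these cells differed by diet. The summed FPKM of 3 brown adipocyte markers was 21.4 to 25.9 on HFD and 15.7 to 18.6 on NC. Most of this sum was 1 gene, Cidea, at 21.2 to 22.0 FPKM on HFD and 15.2 to 18.5 FPKM on NC. Ucp1 was at 0 in 4 libraries and at 4.11 FPKM in HFD 3, and Dio2 was at most 0.478 FPKM, in NC 3. The sum therefore does not show that brown fat cells differed by diet. Sums of the ventricular, atrial, fibroblast, endothelial, adipocyte, erythroid and skeletal muscle markers overlapped between the diets. The part of any of these cell types in the values below was not tested. Atrial markers differed widely between libraries of the same diet, and their values stand beside the genes they move with.

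Stretches of DNA upstream of 5 of the genes are shown first. Prkaa1, Prkaa2 and Prkab2 are shown because they shared a highest and a lowest library, Prkab1 because it was the partner of Prkab2 that did not, and Mlycd because it varied least of all 10. The stretches lie within the 250 bases before the start that RefSeq gives in GRCm38.p6, the same assembly as mm10, with bases inside GENCODE exons left out. Capitals mark matches on either strand to the GC box GGGCGG, the CCAAT box CCAAT, the E box CACGTG, the TATA box TATAAA, the AAGGTCA element bound by estrogen-related receptors, and the cyclic AMP response element TGACGTCA.
Prkaa1, chr15:5143611-5143860, plus strand: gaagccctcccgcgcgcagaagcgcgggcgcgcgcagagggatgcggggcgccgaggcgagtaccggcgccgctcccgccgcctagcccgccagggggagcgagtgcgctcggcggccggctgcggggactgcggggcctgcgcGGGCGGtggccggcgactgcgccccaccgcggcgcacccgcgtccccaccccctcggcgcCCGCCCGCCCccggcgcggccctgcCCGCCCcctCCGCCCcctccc
Prkaa2, chr4:105109899-105110148, minus strand: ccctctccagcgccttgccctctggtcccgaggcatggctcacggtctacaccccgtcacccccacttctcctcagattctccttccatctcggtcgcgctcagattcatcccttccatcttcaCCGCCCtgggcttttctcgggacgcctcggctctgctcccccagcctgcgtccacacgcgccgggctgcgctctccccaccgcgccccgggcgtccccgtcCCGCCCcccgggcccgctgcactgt
Prkab2, chr3:97657962-97658192, plus strand: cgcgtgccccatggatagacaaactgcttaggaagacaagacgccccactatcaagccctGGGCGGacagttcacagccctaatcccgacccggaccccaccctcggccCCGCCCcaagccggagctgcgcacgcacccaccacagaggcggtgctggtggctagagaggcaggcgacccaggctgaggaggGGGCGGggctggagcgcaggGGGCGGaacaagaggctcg
Prkab1, chr5:116024509-116024678, minus strand: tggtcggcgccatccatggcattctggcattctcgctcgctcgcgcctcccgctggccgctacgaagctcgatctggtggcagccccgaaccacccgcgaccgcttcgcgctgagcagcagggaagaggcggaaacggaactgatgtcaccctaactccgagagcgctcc
Mlycd, chr8:119394644-119394877, plus strand: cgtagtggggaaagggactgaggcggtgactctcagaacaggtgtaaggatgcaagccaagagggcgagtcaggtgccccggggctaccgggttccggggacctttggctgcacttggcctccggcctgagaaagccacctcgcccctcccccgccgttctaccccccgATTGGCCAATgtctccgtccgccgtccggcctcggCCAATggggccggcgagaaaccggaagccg

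The Prkaa1 stretch held 5 GC boxes, the Prkaa2 stretch 2 and the printed Prkab2 stretch 4, some of them overlapping in Prkaa1. The Prkab1 stretch held none of the motifs searched. Of the genes not shown, Prkag1 had 1 GC box in the full 250 bases, and RefSeq starts 1, 2 and 3 of Prkag2 had 2, 0 and 1. Stk11, Acaca and Acacb had 0. The Acaca and Acacb windows lie inside the GENCODE genes and not before them, as do those of Prkag2 starts 2 and 3. None of the genes not shown shared the highest and lowest library of Prkaa1, Prkaa2 and Prkab2, so GC boxes were not limited to genes that did. Of all 32851 windows of 250 bases in the RefSeq table, 32.7% had at least 1 GC box. In Mlycd the capitals are 3 CCAAT boxes, a motif found in 33.8% of windows, and the first pair of them lies back to back on opposite strands. Stk11, not shown, also had 3, Prkag1 and Acacb had 1 each, and Prkag2 starts 1, 2 and 3 had 1, 2 and 0. The E box stood in 6.02% of windows, the AAGGTCA element in 4.08%, the TATA box in 12.4% and the cyclic AMP response element in 1.55%, and none of these occurred in the stretches shown. The base composition differed as well: over the full 250 bases the GC content was 85.2% for Prkaa1, 70% for Prkaa2, 69.2% for Prkab2, 65.6% for Prkab1 and 67.6% for Mlycd, against a median of 52.4% over all windows. These matches describe the letters only, and the deposited values are per gene and do not separate transcription starts.

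None of the 10 genes passed the test between the diets. With limma and Benjamini-Hochberg adjustment 0 of the 10 genes passed an adjusted p of 0.05 (adjusted p = 0.9998 for each), against 0 of 11456 tested genes (0%). At an unadjusted p of 0.05 there were again 0 of the 10, where 3.62% of all tested genes lay below it. The HFD and NC values overlapped in all 10, whereas the diets were fully separated in 8.13% of tested genes. Log2 fold changes, given throughout as HFD minus NC on the log2(FPKM + 1) scale, ran from −0.14 for Prkag1 to 0.33 for Acacb. Their median was −0.06, beside −0.02 for all tested genes, with 4 of the 10 higher and 6 lower on HFD. The 95% confidence intervals were wide. The narrowest, for Mlycd, reached from −0.39 to 0.46, and the widest, for Prkag2, from −1.04 to 0.84, so a difference inside these bounds could not be told from 0.

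**Figure D1:**
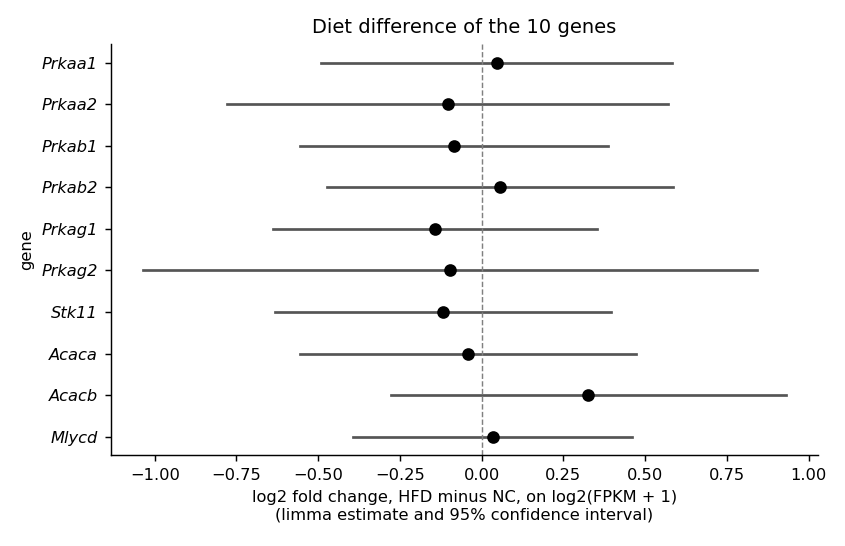
Log2 fold change of each of the 10 genes, HFD minus NC, on the log2(FPKM + 1) scale; points are limma estimates and bars their 95% confidence intervals, with 3 libraries a diet. Every bar crosses 0, and Acacb, at 0.33, lies farthest from it.

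The levels of the 10 genes spanned a wide range within each heart. Averaged over the 6 libraries, Stk11 was highest at 53.3 FPKM, followed by Prkag1 at 45.8, Mlycd at 33.9, Acacb at 20.0, Prkab1 at 12.4, Prkag2 at 11.3, Prkab2 at 4.01, Prkaa2 at 3.81, Prkaa1 at 2.68 and Acaca at 1.02 FPKM. Among neighbours in this order, the ranges over libraries were separate for Mlycd above Acacb and for Prkaa1 above Acaca, and they overlapped for the other 7 pairs. Stk11 nevertheless exceeded Prkag1 in 6 of 6 libraries, whereas Prkab2 exceeded Prkaa2 in 3 of 6. Stk11 stood above 92.6% of tested genes by mean level and Acaca above 0.541%. The authors' gene lengths are unknown, and the exons of the 10 genes together cover between 2175 bases in Prkag1 and 17074 bases in Acaca in GENCODE, so the order of levels depends on the length the authors used.

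**Figure D2:**
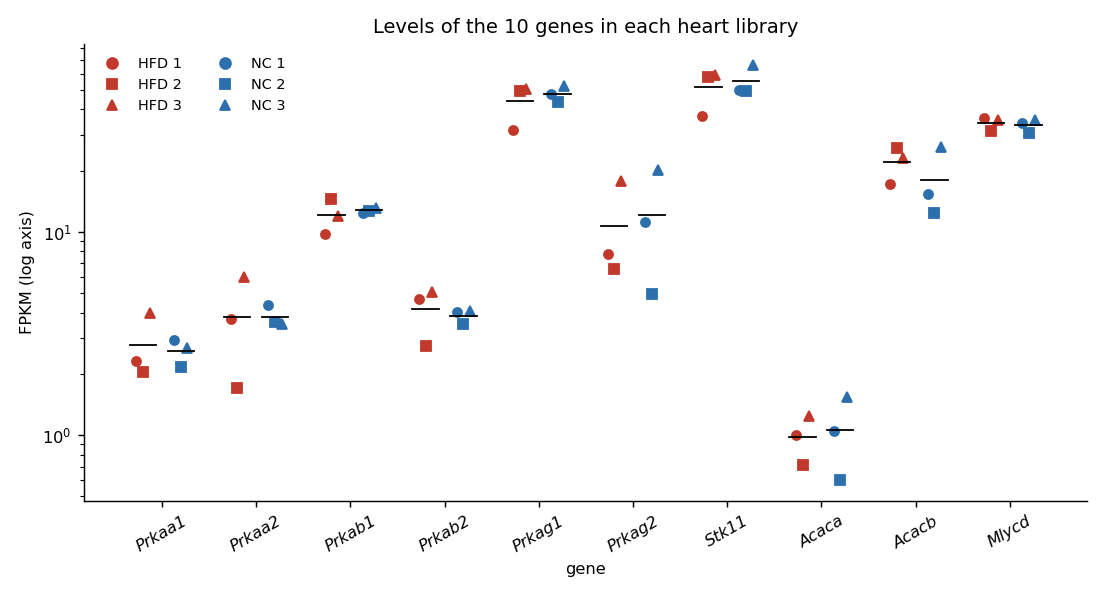
FPKM of the 10 genes in each library, on a log axis, with HFD libraries in red left of NC libraries in blue, marker shapes giving the library number and lines the group means. The diets overlap in every gene, Mlycd is the tightest, and Prkag2 and Prkaa2 spread most.

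The catalytic subunits were transcribed at low levels, with a larger SD among HFD than among NC libraries. Prkaa2 encodes alpha2, the catalytic isoform typical of heart and skeletal muscle. It was at 3.72, 1.71 and 5.98 FPKM in HFD 1 to 3, and at 4.34, 3.61 and 3.51 FPKM in NC 1 to 3. The NC values thus lay between the HFD extremes, and the means were close, 3.81 ± 2.13 FPKM on HFD and 3.82 ± 0.454 FPKM on NC (SD, n = 3 each; log2 fold change −0.10, SE 0.31). Its log2 fold change was −0.43 without HFD 3 and 0.26 without HFD 2, so its sign rests on which of these 2 libraries is kept. Prkaa1 encodes alpha1, the widely expressed catalytic isoform. Its values were 2.32, 2.04 and 3.97 FPKM in HFD 1 to 3, and 2.94, 2.15 and 2.67 FPKM in NC 1 to 3. Again HFD 2 was lowest and HFD 3 highest, with a log2 fold change of 0.05 (SE 0.25). Prkaa1 lies on chromosome 15 from 5143861 to 5181899 and Prkaa2 on chromosome 4 from 105029874 to 105109890, and exons of neither overlap those of another annotated gene.

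Prkaa2 made up the larger part of the summed alpha FPKM in 5 of 6 libraries. Its share was 61.6, 45.7 and 60.1% in HFD 1 to 3, and 59.7, 62.6 and 56.8% in NC 1 to 3. Only in HFD 2 did Prkaa1 exceed Prkaa2. HFD 2 also had the lowest alpha sum, and HFD 3 the highest. The sum was at 6.04, 3.76 and 9.95 FPKM on HFD and 7.28, 5.77 and 6.18 FPKM on NC, again in the order 1 to 3. These shares are descriptions without a test.

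The beta genes, whose products hold the complex together and bind glycogen, stood at opposite extremes in HFD 2. Prkab1, the gene of beta1, was at 9.77, 14.6 and 11.9 FPKM in HFD 1 to 3, and at 12.4, 12.7 and 13.1 FPKM in NC 1 to 3. Prkab2, the gene of the muscle isoform beta2, was at 4.65, 2.75 and 5.08 FPKM in HFD 1 to 3, and at 4.04, 3.50 and 4.06 FPKM in NC 1 to 3. HFD 2 was therefore the highest library for Prkab1 and the lowest for Prkab2. As a share of the beta sum Prkab2 was 32.3, 15.9 and 29.8% in HFD 1 to 3, and 24.6, 21.6 and 23.6% in NC 1 to 3. All NC shares fell inside the HFD range. The beta sum itself was steady, at 16.3 ± 1.59 FPKM on HFD and 16.6 ± 0.524 FPKM on NC (SD, n = 3 each). Log2 fold changes were −0.08 (SE 0.22) for Prkab1 and 0.06 (SE 0.24) for Prkab2. The estimate for Prkab1 was 0.05 without HFD 1, and that for Prkab2 was −0.08 without HFD 3. Prkab1 lies on chromosome 5 from 116013586 to 116024508 and Prkab2 on chromosome 3 from 97658193 to 97673812.

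**Figure D3:**
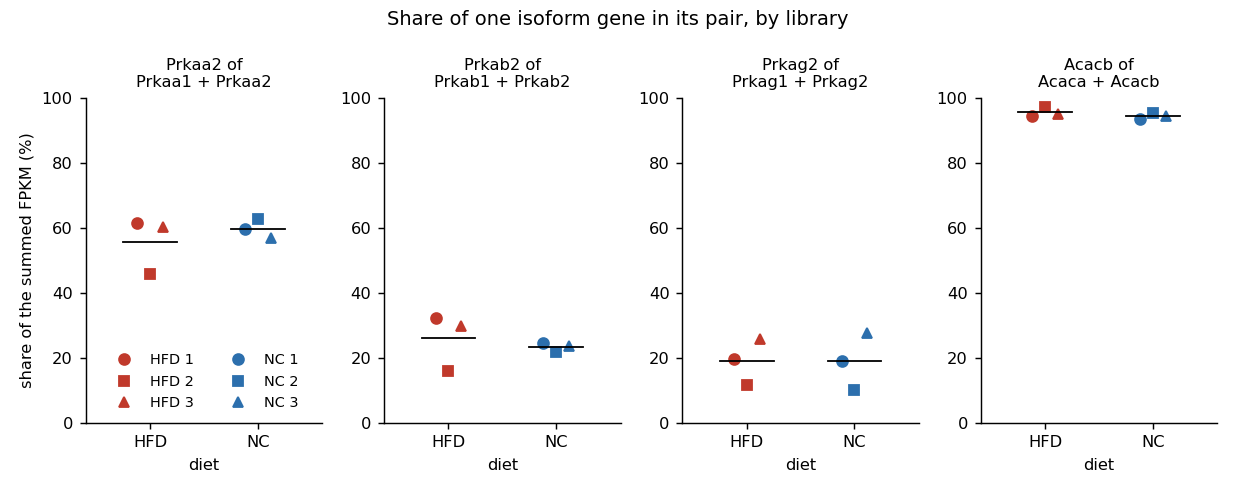
Share of one gene in the summed FPKM of its isoform pair, in percent, for each library; HFD is left of NC, marker shapes give the library number and lines the group means. HFD 2 stands low for Prkaa2 (45.7%) and Prkab2 (15.9%), Prkag2 shares run from 10.2 to 27.8%, and Acacb shares stay above 93%.

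Prkaa1, Prkaa2 and Prkab2 were all highest in HFD 3 and lowest in HFD 2, a pattern found in 12.0% of tested genes. This grouping was made after the values were seen. The summed FPKM of 3 erythroid markers, the globin genes Hba-a1 and Hbb-bs and the heme synthesis gene Alas2, was the other way round at these extremes. It was 4615, 8217 and 764 in HFD 1 to 3, and 3538, 4992 and 1205 in NC 1 to 3. HFD 2 was highest and HFD 3 lowest, and the part of erythroid RNA in the Prkaa1, Prkaa2 and Prkab2 values was not tested. Prkab1, Prkag1 and Stk11 were lowest in HFD 1, as were 33.1% of tested genes. Genes closest to Prkaa2 over the 6 libraries, by the root mean square difference of mean-centred log2(FPKM + 1), were Nipsnap2, Atp1b1 and Vdac1, each at a difference of 0.057, where Prkaa2 itself varied by 0.41 around its mean. Vdac1 was at 169, 86.8 and 238 FPKM in HFD 1 to 3, and at 170.0, 153 and 153 FPKM in NC 1 to 3. Of the 10 genes 7 had a larger SD of FPKM among HFD than among NC libraries, which was also so in 61.7% of tested genes.

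**Figure D4:**
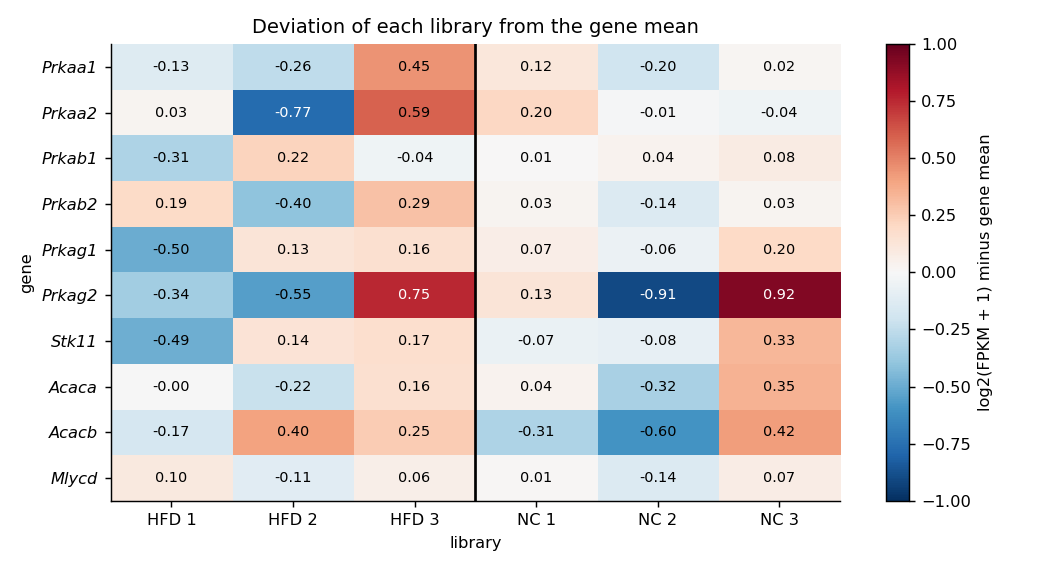
Deviation of log2(FPKM + 1) from the mean of each gene, for 10 genes (rows) and 6 libraries (columns, HFD left of the line and NC right of it); red is above and blue below the mean. HFD 2 is low for Prkaa2 (−0.77) and Prkab2 (−0.40) but high for Acacb (0.40), and Prkag2 runs from −0.91 in NC 2 to 0.92 in NC 3.

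The gamma genes encode the subunits that bind AMP, ADP and ATP. Prkag1, the gene of the widespread gamma1 isoform, was at 31.8, 49.5 and 50.5 FPKM in HFD 1 to 3, and at 47.5, 43.5 and 52.1 FPKM in NC 1 to 3. HFD 1 alone stood below the other libraries, and the log2 fold change of −0.14 (SE 0.23) was 0.07 without it. Prkag2 encodes gamma2, whose mutations in humans cause a cardiomyopathy with glycogen storage and ventricular pre-excitation. It was at 7.74, 6.56 and 17.7 FPKM in HFD 1 to 3, and at 11.1, 4.93 and 20.1 FPKM in NC 1 to 3. The spread inside each diet was thus far larger than the difference between them, with means of 10.7 ± 6.11 FPKM on HFD and 12.0 ± 7.60 FPKM on NC (SD, n = 3 each; log2 fold change −0.10, SE 0.43). Leaving out NC 3 gave 0.34 and leaving out NC 2 gave −0.57. Its highest library stood 4.07-fold above its lowest, more than in 93.9% of tested genes. As a share of the gamma sum Prkag2 was 19.6, 11.7 and 25.9% in HFD 1 to 3, and 19.0, 10.2 and 27.8% in NC 1 to 3.

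Prkag2 followed the mean of the atrial markers across the libraries. The mean log2(FPKM + 1) of 9 atrial markers was 4.77, 3.90 and 7.12 in HFD 1 to 3, and 6.24, 3.49 and 7.76 in NC 1 to 3. The atrial natriuretic peptide gene Nppa, the best known of them, was at 941, 227 and 4185 FPKM on HFD and 2072, 277 and 9404 FPKM on NC, in the order 1 to 3. All 9 markers were highest in NC 3, but they did not run alike. Myl7, Myl4, Sln and Stard10 were lowest in NC 2, Bmp10 in HFD 1, and Nppa, Dkk3, Nr2f1 and Nr2f2 in HFD 2. Nr2f1 was at 1.07, 0.646 and 1.06 FPKM on HFD and 1.64, 2.88 and 3.42 FPKM on NC. Sorted by the marker mean, the 6 libraries stood in the same order as when sorted by Prkag2, and likewise by Acaca, so 2 of the 10 genes shared an order found in 0.419% of tested genes. This was noticed in the values and is a description. With the atrial mean as a covariate the log2 fold change of Prkag2 was 0.14 and its SE 0.21, in place of −0.10 and 0.43, and that of Acaca was 0.036. In bulk tissue, more atrial cells and more RNA per atrial cell cannot be told apart. The mean log2(FPKM + 1) of 6 fibroblast markers was 4.23, 4.07 and 4.81 in HFD 1 to 3, and 5.01, 4.26 and 5.15 in NC 1 to 3. It too was highest in NC 3, NC 1 and HFD 3. Apart from the atrial covariate fit, the part of atrial or fibroblast RNA in the Prkag2 and Acaca values was not tested. Prkag2 lies on the minus strand of chromosome 5 from 24862744 to 25100642, RefSeq gives it 3 starts, and the deposited values do not separate them.

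**Figure D5:**
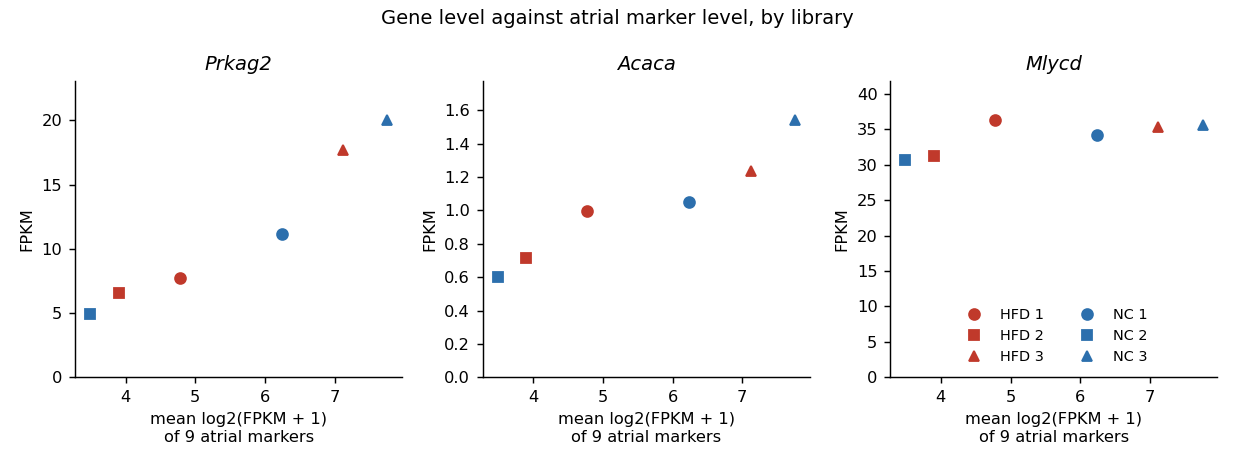
FPKM of Prkag2, Acaca and Mlycd against the mean log2(FPKM + 1) of 9 atrial markers, 1 point a library, HFD in red and NC in blue. Prkag2 lies between 4.93 FPKM in NC 2 and 20.1 FPKM in NC 3 and Acaca between 0.601 and 1.54 FPKM in the same libraries, while Mlycd stays between 30.7 and 36.4 FPKM.

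Stk11, the gene of the AMPK-activating kinase LKB1, was at 37.1, 57.9 and 59.1 FPKM in HFD 1 to 3, and at 49.9, 49.4 and 66.3 FPKM in NC 1 to 3. HFD 1 was lowest and NC 3 highest, and means were 51.3 ± 12.3 FPKM on HFD and 55.2 ± 9.61 FPKM on NC (SD, n = 3 each; log2 fold change −0.12, SE 0.24). Without HFD 1 it was 0.10, and without NC 3 it was 0.02. Stk11 lies on chromosome 10 from 80115803 to 80130682. Its exons overlap those of Cbarp on the opposite strand by up to 232 bases, those of Prkag1 overlap the antisense gene B130046B21Rik by up to 711 bases, and those of Prkag2 overlap the antisense gene Prkag2os2 by up to 795 bases. It is not known whether counting used strand, and without strand the reads of such a pair cannot be told apart. The partners were low, at most 1.79 FPKM for Cbarp, 1.08 FPKM for B130046B21Rik and 0.545 FPKM for Prkag2os2 in any library.

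Acetyl-CoA carboxylase mRNA in these hearts was almost entirely Acacb. This gene encodes ACC2, the isoform at the outer mitochondrial membrane whose malonyl-CoA acts on CPT1, whereas Acaca encodes ACC1, the cytosolic isoform of fatty acid synthesis. Acacb was at 17.1, 25.9 and 23.2 FPKM in HFD 1 to 3, and at 15.4, 12.4 and 26.1 FPKM in NC 1 to 3. The NC 3 library was above every HFD library, while NC 1 and NC 2 were below them all. Means were 22.0 ± 4.48 FPKM on HFD and 18.0 ± 7.20 FPKM on NC (SD, n = 3 each). The log2 fold change was 0.33 (SE 0.28, limma adjusted p = 0.9998). Of the 10 it alone kept its sign under all 17 alternative settings, some of which cannot alter a fold change. It ranged there from 0.11 without NC 2 to 0.62 without NC 3, where limma gave an unadjusted p of 0.0377 and an adjusted p of 0.9996, and its smallest adjusted p under any setting was 0.926.

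Acaca was low, at 0.997, 0.715 and 1.24 FPKM in HFD 1 to 3, and at 1.05, 0.601 and 1.54 FPKM in NC 1 to 3. The diets overlapped fully, and the log2 fold change was −0.04 (SE 0.24). With a pseudocount of 0.1 in place of 1 it was −0.05 (SE 0.46), so at this low level the SE depends on the pseudocount. Acacb made up 94.5, 97.3 and 94.9% of the summed carboxylase FPKM in HFD 1 to 3, and 93.6, 95.4 and 94.4% in NC 1 to 3. Fat cells are rich in ACC1, and the 6 adipocyte markers, Adipoq and Plin1 among them, differed widely between libraries. Their summed FPKM was 1.04, 13.7 and 51.8 in HFD 1 to 3, and 67.3, 3.74 and 55.7 in NC 1 to 3. Leptin (Lep) was at 0 in 3 libraries, and the other 5 were above 0 in every library but for Retn, which was at 0 in HFD 1. Acaca was higher in the 3 libraries with the larger adipocyte sums, HFD 3, NC 1 and NC 3, which also had the higher atrial marker means, and the part of either in the Acaca values was not tested beyond the covariate fit above. Acaca lies on chromosome 11 from 84129672 to 84401651 and Acacb on chromosome 5 from 114146535 to 114250761.

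Mlycd was the steadiest gene of the group. It was at 36.4, 31.2 and 35.4 FPKM in HFD 1 to 3, and at 34.2, 30.7 and 35.6 FPKM in NC 1 to 3. Its highest library exceeded its lowest by a factor of 1.184, and 0.375% of tested genes had a smaller factor, against a median of 1.88. Means were 34.3 ± 2.72 FPKM on HFD and 33.5 ± 2.52 FPKM on NC (SD, n = 3 each; log2 fold change 0.03, SE 0.20). Because Mlycd barely varied, its ratio to Acacb mirrored Acacb, at 2.13, 1.21 and 1.53 in HFD 1 to 3, and at 2.22, 2.47 and 1.36 in NC 1 to 3. Decarboxylase mRNA thus exceeded ACC2 mRNA per length in 6 of 6 libraries, and the ratio did not separate the diets. The genes nearest to Mlycd over the 6 libraries were Mocs2, Atxn7l1 and Mageh1, at root mean square differences of 0.041, 0.042 and 0.050 (log2), and those nearest to Acacb were Numbl, L3mbtl2 and Faf2, at 0.083, 0.087 and 0.090. Mlycd lies on chromosome 8 from 119394878 to 119411102.

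Genes around the switch were examined in 4 lists. The background for each is all 11456 tested genes, 5373 higher and 6083 lower on HFD, with a median log2 fold change of −0.02. No test of a list as a set was made. In the list of LKB1 partners, other AMPK kinases and AMPK regulators, 15 of 19 genes were tested and 0 passed, with 14 higher and 1 lower on HFD (median log2 fold change 0.13, beside −0.02 for all tested genes). The diets were separated in 2 of the 15, beside 8.13% of all tested genes. These were Fnip1, whose product binds folliculin and AMPK, at 3.99, 4.14 and 5.35 FPKM on HFD and 3.83, 3.89 and 3.001 FPKM on NC, and Sesn3, a sestrin gene, at 1.40, 0.966 and 1.5 FPKM on HFD and 1.72, 1.604 and 2.70 FPKM on NC, each in the order 1 to 3. Without HFD 3 the list held 7 higher and 8 lower, and the median of all tested genes moved to −0.11. Sesn1, another sestrin gene, had a log2 fold change of 0.51 (SE 0.27, limma adjusted p = 0.9998). LKB1 works with the pseudokinase STRAD and the scaffold MO25. The log2 fold change was 0.07 (SE 0.30) for Strada, 0.09 (SE 0.26) for Stradb and 0.14 (SE 0.23) for Cab39, which encodes MO25. It was 0.01 (SE 0.27) for Camkk2, the calcium-dependent AMPK kinase, and 0.07 (SE 0.23) for the adiponectin receptor gene Adipor1. Prkag3, the gamma gene of fast skeletal muscle, was under the threshold for testing, at 0.360, 0.796 and 1.55 FPKM in HFD 1 to 3, and at 0.780, 0.709 and 0.697 FPKM in NC 1 to 3.

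Of the kinases related to AMPK that LKB1 also activates, 9 of 12 were tested and 0 passed, with 7 higher and 2 lower (median log2 fold change 0.11). Snrk was the one of the 9 in which the diets were separated. It was at 27.7, 29.0 and 34.4 FPKM in HFD 1 to 3, and at 24.4, 17.6 and 18.6 FPKM in NC 1 to 3, a log2 fold change of 0.57 (SE 0.21, limma adjusted p = 0.9998). All HFD values lay above all NC values, as happened in either direction in 8.13% of tested genes. Mark1 and Mark3, members of the microtubule affinity-regulating kinases, had log2 fold changes of −0.22 (SE 0.23) and 0.17 (SE 0.22). Without HFD 3 the list held 4 higher and 5 lower, and the same without NC 2.

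Among other genes whose products AMPK phosphorylates, 18 of 18 were tested and 0 passed, with 16 higher and 2 lower (median log2 fold change 0.09). The diets overlapped in all 18. The smallest p belonged to the transcription factor gene Foxo3, at 5.61, 4.11 and 8.24 FPKM in HFD 1 to 3 and at 4.62, 4.605 and 3.66 FPKM in NC 1 to 3. HFD 3 was highest, and HFD 2 stood below NC 1 and NC 2. Ppargc1a, the gene of the mitochondrial coactivator PGC-1alpha, had a log2 fold change of 0.34 (SE 0.27) and the lipid kinase gene Pikfyve one of 0.23 (SE 0.22). Without NC 2 the list held 9 higher and 9 lower, and with the atrial marker mean as a covariate 18 higher and 0 lower (median 0.18), with 0 passing in either fit.

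The last list held genes that supply malonyl-CoA, use it or answer to it, of which 15 of 16 were tested and 0 passed, with 10 higher and 5 lower (median log2 fold change 0.19). Without HFD 3 it held 7 higher and 8 lower. Acly, the ATP citrate lyase gene that supplies cytosolic acetyl-CoA, was the one of the 15 in which the diets were separated, beside 8.13% of all tested genes. It was at 8.89, 9.36 and 9.64 FPKM in HFD 1 to 3, and at 7.36, 4.68 and 7.63 FPKM in NC 1 to 3 (log2 fold change 0.47, SE 0.23, limma adjusted p = 0.9998). Slc25a1, the mitochondrial citrate carrier gene, had a log2 fold change of −0.37 (SE 0.34), and Fasn, the fatty acid synthase gene that consumes malonyl-CoA, one of −0.42 (SE 0.25). Mid1ip1, whose product helps acetyl-CoA carboxylase polymerize, was at 0.28 (SE 0.24) on the same scale. Of the CPT1 genes that malonyl-CoA inhibits, the muscle form Cpt1b was at 54.2, 78.6 and 101 FPKM in HFD 1 to 3, and at 66.0, 43.9 and 47.7 FPKM in NC 1 to 3. HFD 1 lay inside the NC range, and the log2 fold change of Cpt1b was 0.54 (SE 0.26, limma adjusted p = 0.9998), the largest of the 15. Cpt1a, the liver form, was at 7.36 ± 0.491 FPKM on HFD and 6.02 ± 1.98 FPKM on NC (SD, n = 3 each). Cpt1b exceeded Cpt1a per length in every library.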

How the data were processed

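FPKM values were deposited by the authors in 1 table, per gene and library. The submitters' processing notes list, without roles, HISAT2 2.2.1 and the mm10 build, HTSeq 0.13.5, Trimmomatic 0.38, DESeq2 1.18.1, FastQC 0.11.9 and R 3.4.1. Per the labels' protocols, a VAHTS mRNA-seq kit was used on Trizol-extracted RNA. The sources used here do not give the program that computed FPKM, nor depth and strand use, so no counting interval is given.

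Symbols were matched by gene identifier for 23718 of 23808 genes. Of the whole table, 11456 genes reached 1 FPKM on average and were tested on log2(FPKM + 1), a scale on which fold changes of weakly expressed genes are understated. The test of HFD against NC was that of limma (version 3.58.1, R 4.3.3; two-sided, moderated with a trend on the mean, p adjusted by Benjamini-Hochberg over all 11456, threshold 0.05), without covariates. Shares and ratios are of FPKM within a library. Coordinates and exons come from GENCODE M21 (GRCm38, the same assembly as mm10), sequences from RefSeq, and figures from matplotlib 3.10.9.

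The genes were fixed by name, not by a measured value, but they, the lists and the settings were chosen with earlier results of these data known. All 10 members, a panel of 12 genes and, from each list, up to 3 genes with the smallest p were to be named, as were the 3 genes nearest to Prkaa2, Acacb and Mlycd in pattern. Whether same-numbered libraries of the diets belong together is not known, and their weak correlations did not settle it. The numbers were not used as pairs in the main test.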

Additional observations from a re-analysis of the deposited data

How the results depend on the processing

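Under 17 other settings (2 pseudocounts, 2 filters, 3 scalings, eBayes without trend or robust, an atrial covariate, the replicate number as a block, and each of 6 libraries left out) 0 of the 10 genes passed. Of 170 fold changes under these settings 19 turned sign, 17 of them when a library was left out. The filters, the eBayes settings and the replicate block leave the fold change of each gene as it is, so no sign could turn there. The atrial covariate turned Prkag2 to 0.14 and Acaca to 0.036 (log2). Without a turn of sign it gave 0.11 for Prkaa1, −0.02 for Prkaa2, −0.09 for Prkab1 and 0.11 for Prkab2. It gave −0.11 for Prkag1, −0.07 for Stk11, 0.40 for Acacb and 0.06 for Mlycd. The scalings turned none. Leaving out 1 library gave log2 fold changes of −0.17 to 0.18 for Prkaa1, −0.43 to 0.26 for Prkaa2, −0.22 to 0.048 for Prkab1, −0.078 to 0.27 for Prkab2, −0.26 to 0.070 for Prkag1, −0.57 to 0.34 for Prkag2, −0.23 to 0.10 for Stk11, −0.21 to 0.12 for Acaca, 0.11 to 0.62 for Acacb and −0.026 to 0.098 for Mlycd. The cause was not tested. Over all genes the count past the threshold was 0, and 1 with the atrial covariate, 0 to 1 when a library was left out (1 without NC 2) and 73 with the replicate block, none a member in any of these. With the block, SEs of the 10 genes lay only between 0.250 and 0.272, against 0.196 to 0.431 without it. That fit gave the 10 genes nearly the same variance, which does not describe the 73. The smallest limma adjusted p over all genes in that fit was 1.4e-93. With 3 libraries a diet such a value is not taken at face value, and the 73 are not read as effects of diet. Deviations of same-numbered libraries correlated at 0.19, 0.086 and 0.28, all above 0. Those of libraries with different numbers ran from −0.36 (HFD 1 with NC 3) to 0.25 (HFD 1 with NC 2). HFD 1 thus correlated best with NC 2, and these values do not settle whether a shared number marks a pair. With 3 libraries a diet and unknown depth, the intervals in the report limit what could be seen.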
